A study of Mus musculus with 22 samples.

Results

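Cardiomyocytes of floxed SAP97 mice without Cre were compared with cardiomyocytes of wild type mice. SAP97 control mice carry the genotype SAP97 fl/fl, in which the first exon of Dlg1, the gene of SAP97, lies between loxP sites, and they are on a mixed strain background. MDX control mice are wild type, 2 of them labelled C57Bl/6J (replicates 1 and 2), 2 C57Bl/6 (replicates 3 and 4) and 1 a mixed strain backcrossed to C57Bl/6 (replicate 5). The study's methods describe all of them except replicate 5 as pure C57Bl/6J. By the labels neither group carries Cre, and the study's methods call SAP97 control Cre-negative, although its table of sequencing metrics lists these libraries as with Cre. The groups differ in mouse line, floxed allele and strain, and also in age and possibly in sequencing round, and these cannot be told apart. Members are the 3 SAP97 control and 5 MDX control libraries, 8 of the 22 in the series. Each library came from the ventricular cardiomyocytes of 1 male mouse, isolated by enzymatic digestion on a Langendorff system. Ages were 10.6, 11.3 and 13 weeks in SAP97 control and 10.9 to 14.7 weeks in MDX control. A second comparison of both lines used 7 other mice: 3 SAP97 KO mice (genotype MHC-Cre + SAP97 fl/fl, mixed strain), in which the cardiac alpha-myosin heavy chain promoter drives Cre, and 4 MDX mice (MDX -/-, 3 on C57Bl/6Ros and 1 of a mixed strain backcrossed to C57Bl/6J), which lack dystrophin. Their ages were 10.7, 11.3 and 13 weeks in SAP97 KO, and 17.7 weeks in MDX replicate 4 and 10.9 weeks in the other 3 MDX mice. Levels are also given for the CASK line, also of mixed strain, with 3 CASK control mice (MHC-Cre, 11 to 12.7 weeks) and 3 CASK KO mice (MHC-Cre + CASK fl/fl, 10.1 to 11.3 weeks).

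SAP97 is a scaffold protein of the membrane-associated guanylate kinase family. Its PDZ domains hold potassium and sodium channels at the cardiomyocyte membrane. A floxed allele is made in embryonic stem cells and then bred, so that a floxed line carries the genome of its founders around the target gene and, on a mixed background, elsewhere too. A control line that is not from the same litters as its wild type therefore differs from it at many loci beside the target gene.

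The promoters of the 3 genes that passed the test between both groups are shown first, since all 3 genes had far lower levels in SAP97 control. The sequences are the reference sequence of RefSeq on GRCm38.p6, from 250 bases before to 50 bases after the gene's start, so they show the position of the genes' starts and not the sequence these mice carry. Capitals mark matches, on either strand, to the E-box CACGTG, the GC box GGGCGG, the CCAAT box and the TATA box TATAAA.
Ogdhl, chr14:32321769-32322068, plus strand: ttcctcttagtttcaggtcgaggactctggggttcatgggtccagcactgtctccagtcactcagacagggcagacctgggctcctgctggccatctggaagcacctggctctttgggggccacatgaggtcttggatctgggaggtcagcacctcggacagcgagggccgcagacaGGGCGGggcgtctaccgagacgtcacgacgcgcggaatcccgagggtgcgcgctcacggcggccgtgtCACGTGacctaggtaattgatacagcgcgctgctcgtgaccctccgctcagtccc
Hrasls (Plaat1 in RefSeq), chr16:29209445-29209744, plus strand: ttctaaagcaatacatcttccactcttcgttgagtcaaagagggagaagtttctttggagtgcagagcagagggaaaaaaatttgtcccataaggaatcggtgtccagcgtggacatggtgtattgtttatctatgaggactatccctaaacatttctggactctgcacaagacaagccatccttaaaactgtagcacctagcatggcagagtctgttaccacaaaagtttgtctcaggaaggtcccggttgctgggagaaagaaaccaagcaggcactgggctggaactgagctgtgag
Ttc38, chr15:85832054-85832353, plus strand: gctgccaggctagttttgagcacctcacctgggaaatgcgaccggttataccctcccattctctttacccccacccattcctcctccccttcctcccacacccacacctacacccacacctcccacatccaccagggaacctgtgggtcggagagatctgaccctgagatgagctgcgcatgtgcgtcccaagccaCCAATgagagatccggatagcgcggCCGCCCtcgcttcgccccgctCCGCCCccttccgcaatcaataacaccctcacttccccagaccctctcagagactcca
The window of Ogdhl held 1 E-box and 1 GC box, that of Ttc38 held 2 GC boxes and 1 CCAAT box, and that of Hrasls held none of the 4 motifs. Of 32851 promoter windows of the same length, 7.15% held the E-box, 35.7% the GC box, 37.4% the CCAAT box and 13.6% the TATA box. Their GC content was 63.7% for Ogdhl, 46.0% for Hrasls and 60.7% for Ttc38. A match describes the letters of the window and was not tested as a binding site.

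Few genes separated SAP97 control from MDX control beyond the spread between mice, and those that did were lower in SAP97 control. Of 14358 genes tested with edgeR's quasi-likelihood test, 3 passed an adjusted p of 0.01, the study's threshold, which was 0.0209% of the genes tested. All 3 were lower in SAP97 control and none was higher. At an unadjusted p under 0.05, 760 genes or 5.29% were counted, of which 180 (1.25%) were higher and 580 (4.04%) lower in SAP97 control. The median log2 fold change of all genes tested was -0.007, a value that the scaling of the libraries centres near 0, so differences are relative to the bulk of genes. DESeq2 called 27 genes, 10 higher and 17 lower, with all 3 of edgeR among them.

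Ogdhl encodes a protein related to the E1 subunit of the mitochondrial oxoglutarate dehydrogenase complex and lies on chromosome 14 (chr14:32322019-32348151). Its level was 5.58, 6.44 and 6.36 CPM in the 3 SAP97 control libraries, CPM being counts scaled to a common library total of 1e6. In the 5 MDX control libraries it was 165, 190, 125, 179 and 162 CPM. The groups did not overlap, and the backcrossed wild type, replicate 5, lay within the range of the other wild types. The log2 fold change of SAP97 control over MDX control was -4.73 ± 0.22 (SE), a level 26.6-fold lower, with an edgeR adjusted p of 1.18e-05. The libraries held 178 to 198 counts of Ogdhl in SAP97 control and 2188 to 6268 in MDX control, so counting error is small beside this difference.

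Ogdhl varied among the SAP97 KO mice, which come from the same line. It was 81.8, 6.5 and 6.39 CPM in SAP97 KO replicates 1, 2 and 3. Thus 2 SAP97 KO libraries lay at the level of SAP97 control, and replicate 1 lay between these and the 95.9 to 131 CPM of the 4 MDX libraries. In the CASK line, which is also of mixed strain, Ogdhl was 79.5 to 114 CPM in CASK control and 144 to 155 CPM in CASK KO. The low level was therefore seen in 5 of the 6 mice of the SAP97 line and in none of the 15 other libraries.

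Hrasls, named Plaat1 in RefSeq, encodes a phospholipase and acyltransferase of the HRAS-like suppressor family and lies on chromosome 16 (chr16:29209695-29230531), 2.45 Mb before the start of Dlg1. It was 2.54, 2.73 and 2.18 CPM in SAP97 control. In MDX control it was 15.8, 22.5, 18.2, 18.7 and 24.7 CPM, with no overlap between the groups. The log2 fold change was -2.99 ± 0.21 (SE), 7.94-fold lower, with an adjusted p of 3.53e-04. In contrast to Ogdhl, Hrasls was low in all 3 SAP97 KO libraries, at 3.79, 4.84 and 4.13 CPM, against 14.5 to 16.9 CPM in the MDX libraries and 18.7 to 24.9 CPM in the CASK line. All 6 mice of the SAP97 line lay below the 15 others.

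Ttc38 encodes a protein with tetratricopeptide repeats and lies on chromosome 15 (chr15:85832306-85858822). It was 7.62, 8.13 and 7.58 CPM in SAP97 control. In MDX control it was 23.8, 28.7, 20.9, 29.4 and 26.6 CPM. The log2 fold change was -1.72 ± 0.17 (SE), 3.30-fold lower, with an adjusted p of 0.00621. In SAP97 KO it was 8.10, 7.63 and 15.8 CPM, so that replicate 3 lay between the other mice of its line and the 19.2 to 25.7 CPM of MDX. The call of Ttc38 was lost under 10 of 18 alternative analyses, with the adjusted p at most 0.326, while its log2 fold change stayed between -1.82 and -1.64. It was lost when any 1 of SAP97 control replicates 1, 2 and 3 or MDX control replicates 1, 2 and 4 was left out, with an adjusted p of 0.0755, 0.0485, 0.113, 0.0266, 0.0352 and 0.0193 in this order.

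**Figure D1:**
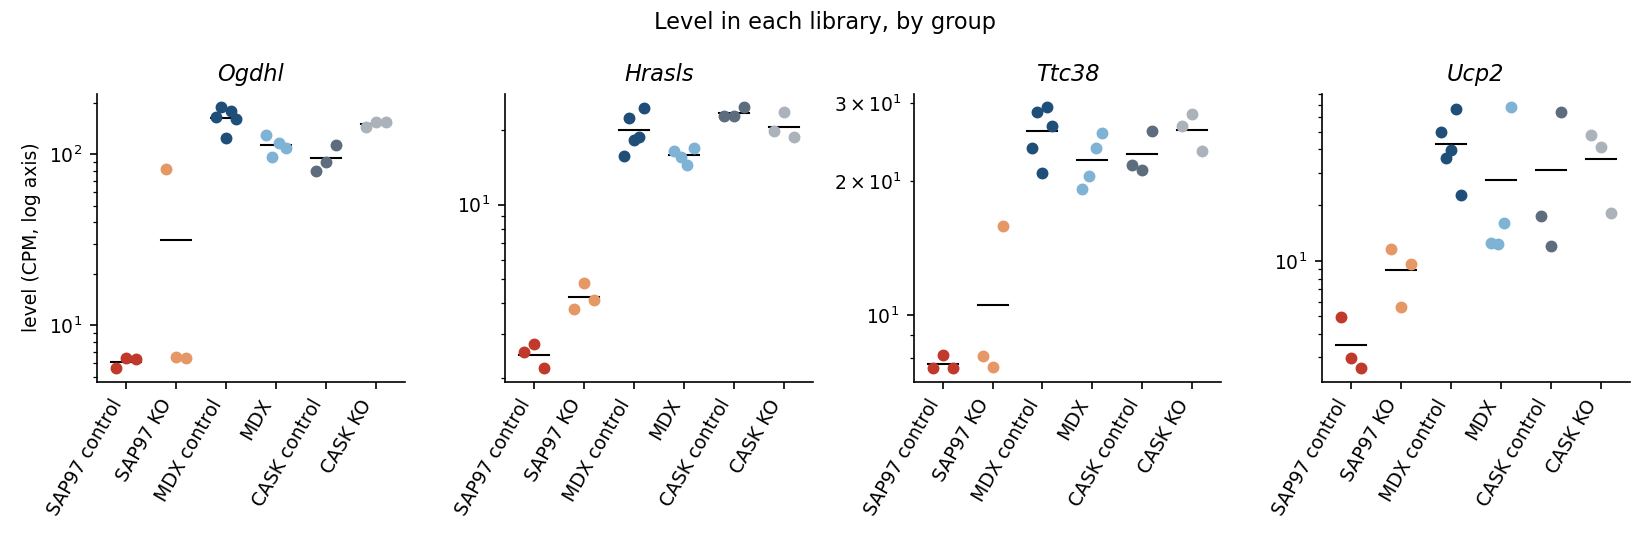
Levels of Ogdhl, Hrasls, Ttc38 and Ucp2 in CPM on a logarithmic axis, 1 point per library and a line at the mean of each of the 6 groups. The 3 SAP97 control libraries lie below all MDX control libraries in each panel, and 1 SAP97 KO library of Ogdhl (81.8 CPM) and 1 of Ttc38 (15.8 CPM) lie apart from the other mice of their line.

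Ucp2 was the next gene by p, just outside the threshold. It encodes a carrier of the inner mitochondrial membrane. It was 4.95, 2.99 and 2.62 CPM in SAP97 control. In MDX control it was 49.7, 36.1, 39.8, 66.5 and 22.6 CPM. The log2 fold change was -3.60 ± 0.40 (SE), with an adjusted p of 0.0113. Ucp2 varied within the other groups too: it was 12.3 to 68.2 CPM in MDX and 12 to 63.6 CPM in CASK control, and 5.62 to 11.5 CPM in SAP97 KO.

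Beyond these, 16 further genes were named by smallest p among genes that had a symbol, reached 1 CPM in the higher group and did not overlap between the groups. Groups did not overlap for 690 of the 14358 genes, or 4.81%. With Ogdhl, Hrasls, Ttc38 and Ucp2 they make 20 genes, 12 of them with a lower and 8 with a higher level in SAP97 control. The 17 that edgeR did not call had adjusted p-values of 0.0113 to 0.275. DESeq2, run on the same counts, called all 20. Under the 18 alternatives, of which DESeq2 is 1, none of the 16 further genes was called more than 3 times. Most of them, among them Col1a1, Bst2 and Lrrc15, were called by DESeq2 alone. The rule chose these genes for their difference, so the sizes below are a description.

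Of the 8 genes with higher levels in SAP97 control, Mboat2 had the smallest p. Mboat2, an acyltransferase of lysophospholipids, was 12.7, 13.9 and 21.9 CPM in SAP97 control. It was 5.84, 6.01, 4.73, 4.50 and 6.92 CPM in MDX control, which gives a log2 fold change of 1.53 ± 0.22 (SE) and an adjusted p of 0.0852. Cxadr, the receptor of coxsackieviruses and adenoviruses and a protein of cell contacts at the intercalated disc, was 119, 99.0 and 122 CPM. In MDX control Cxadr was 54.3, 64.3, 34.0, 50.3 and 61.9 CPM, with a log2 fold change of 1.1 and an adjusted p of 0.254. Blvrb, a reductase of biliverdin and flavin, was 11.4 to 14.3 CPM against 3.76 to 7.80 CPM (log2 fold change 1.25). Osbpl3, a binding protein of oxysterols, was 29.8 to 51.0 CPM against 16.7 to 22.2 CPM (1.08). Tbc1d23, a protein of vesicle traffic at the Golgi, was 18.1 to 22.8 CPM against 8.55 to 12.1 CPM (0.89). Lrrc15, a membrane protein with leucine-rich repeats, was 29.9 to 35.9 CPM against 15.9 to 19.6 CPM (0.87), and the membrane protein Tmem117 was 15.1 to 17.3 CPM against 7.74 to 10.1 CPM (0.88). Rpl15-ps2, a processed pseudogene of a ribosomal protein, had a log2 fold change of 1.27, but reads of such copies are hard to assign and the value is uncertain.

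The others had lower levels in SAP97 control. Col1a1, the alpha-1 chain of type I collagen, was 7.33, 5.14 and 5.06 CPM in SAP97 control. It was 13.1, 11.8, 17.3, 22.4 and 14.2 CPM in MDX control, with a log2 fold change of -1.42 ± 0.25 (SE) and an adjusted p of 0.208. Loxl1, which cross-links elastin, had a log2 fold change of -1.17, and Adamtsl2, a glycoprotein of microfibrils, of -1.66. Bst2 encodes tetherin, an interferon-induced protein that holds budding viruses at the cell surface. It was 2.88, 1.37 and 1.92 CPM against 6.70, 5.07, 8.83, 5.54 and 9.46 CPM, with a log2 fold change of -1.78. Cbx7, a subunit of Polycomb repressive complexes, had a log2 fold change of -1.65, and Bik, a BH3-only protein of apoptosis, of -1.5. Dubr, a long non-coding RNA, was 0.293 to 0.662 CPM against 1.76 to 2.77 CPM (-2.27). Wdfy4, known for antigen presentation by dendritic cells, was 0.22, 0.36 and 0.36 CPM against 2.65, 2.25, 1.94, 2.93 and 0.74 CPM (-2.73), the last value being that of the backcrossed wild type.

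**Figure D2:**
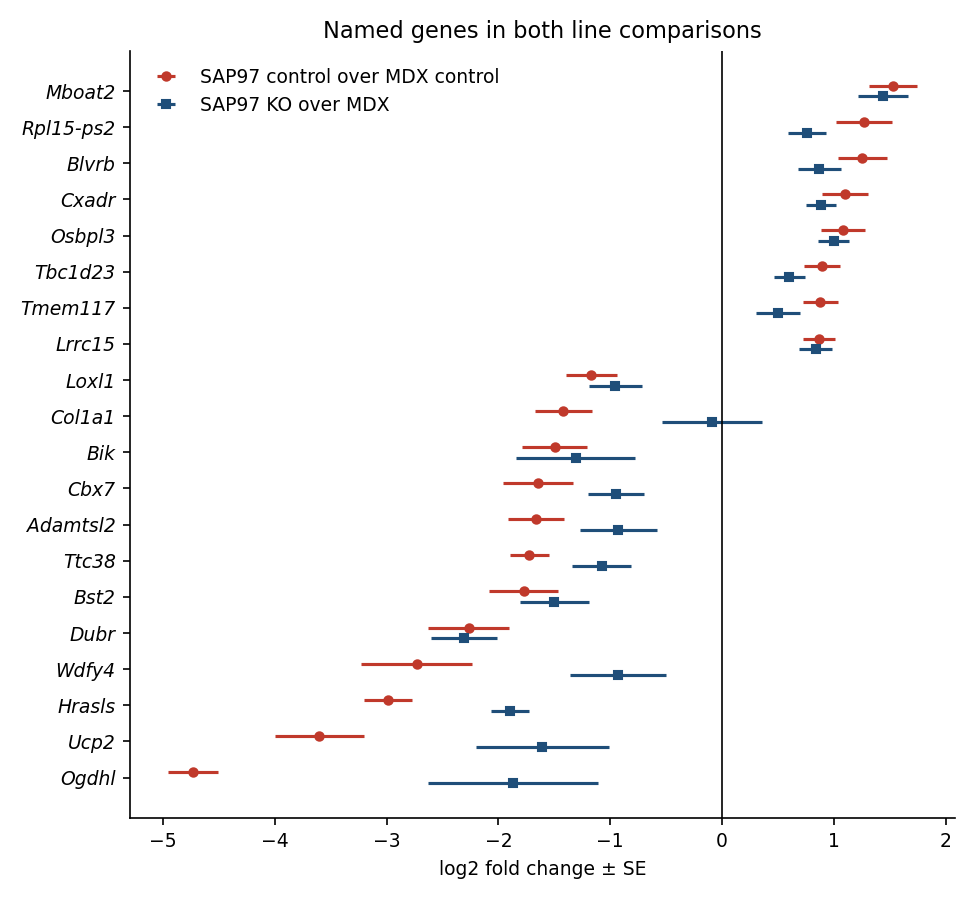
Log2 fold change with its standard error for the 20 named genes, in SAP97 control over MDX control (circles, 3 against 5 mice) and in SAP97 KO over MDX (squares, 3 against 4 other mice). All 20 squares lie on the same side of 0 as their circle, and that of Col1a1 (-0.09) lies nearest to 0.

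The second comparison of both lines shared no mouse with the first. SAP97 KO and MDX differ by Cre and by their mutations beside their lines. Most of these MDX mice also carry another strain label than the wild types, C57Bl/6Ros. The second comparison thus mixes the line difference with Cre, the loss of SAP97 and of dystrophin, and this strain. Where sequencing round goes with the line, its effect would be present in both comparisons, and this was not tested. All 20 named genes had the same sign there, 18 of them at an unadjusted p under 0.05 against 18.8% of all 14417 genes tested in it, 8.43% higher and 10.4% lower in the SAP97 line. Their groups did not overlap for 15 genes, against 16.3% of all genes tested in it. Of the 20, edgeR called only Hrasls in both comparisons, with a log2 fold change of -1.90 ± 0.17 (SE) and an adjusted p of 0.00247 in the mutants. In all, 8 genes (0.0555%) were called between SAP97 KO and MDX, of which 6 were higher in SAP97 KO. The balance turned under other settings, with 167 higher and 257 lower by DESeq2, 317 and 512 without a filter on low counts, and 148 and 240 with a replicate block. The count itself fell to 0 without SAP97 KO replicate 2 or 3. It was 1 without MDX replicate 2 or 3, 3 without SAP97 KO replicate 1 or MDX replicate 4, and 18 without MDX replicate 5.

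Most genes past the unadjusted p in the control pair had the same sign in the mutant pair. Of the 741 genes at an unadjusted p under 0.05 in the control pair that were tested in both, 655 or 88.4% had the same sign in the mutant pair, against 58.4% of all 14077 genes tested in both. Both the same sign and an unadjusted p under 0.05 were found for 367 genes, which is 49.5% of these 741 and 13.8% of the 2659 genes at that p in the mutant pair. Of all genes tested in both, 18.9% were at that p in the mutant pair, with either sign. Only 10 of the 741 were past that p with the opposite sign. Osbpl3 was the 1 named gene with a CASK control or CASK KO library inside or past the SAP97 control range, with 32.8 to 41.6 CPM in CASK control. For the other 19 named genes, every CASK control and every CASK KO library lay on the wild type side of that range. The genes were chosen because these same SAP97 control libraries lay apart from MDX control. That choice favours such a result, which is a description only.

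Whether the line difference itself changed between the control and the mutant pair was tested as an interaction in 1 model of the 4 groups. Cre and the strain of the MDX mice change there along with the mutations. The interaction called 1 gene of 15116 (0.00662%), Dlg1, which was deleted in SAP97 KO. The next smallest adjusted p was 0.158. At an unadjusted p under 0.05 there were 686 genes, or 4.54% (2.9% with a positive and 1.64% with a negative interaction), and DESeq2 called 11. The smaller differences of Ogdhl and Hrasls in the mutants (log2 fold changes of -1.87 and -1.90) had interaction p-values of 0.00415 and 2.68e-04, with adjusted values of 0.729 and 0.312, and so did not pass.

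The genes that the study targets did not pass the test between both control groups. Dlg1 was 55.2, 66.2 and 60.5 CPM in SAP97 control, with its floxed allele intact. In MDX control it was 54.5, 55.8, 42.7, 57.6 and 51.2 CPM, and the log2 fold change was 0.22 ± 0.16 (SE) with an adjusted p of 0.961. In SAP97 KO it was 11.0 to 13.6 CPM, as the labels imply. Dmd, which encodes dystrophin, was 300, 400 and 337 CPM against 328, 315, 312, 303 and 235 CPM (log2 fold change 0.22 ± 0.19 SE, adjusted p of 0.961). Cask was 7.80 to 8.46 CPM against 5.70 to 9.92 CPM (0.13 ± 0.20 SE, adjusted p of 0.970). Nnt, the mitochondrial transhydrogenase whose transcript is cut short by a known deletion in C57BL/6J mice, was 725 to 936 CPM against 515 to 920 CPM (0.14 ± 0.22 SE, adjusted p of 0.970). The Nnt of the 2 wild types labelled C57Bl/6J, 655 and 860 CPM, lay within the range of the other 3 wild types. By the study's methods replicates 3 and 4 are C57Bl/6J too, so these values do not compare that substrain with another.

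The region around Dlg1 held more genes past the unadjusted threshold than other chromosomes. Of the 125 genes tested within 10 Mb of the start of Dlg1, Dlg1 left out, 17 or 13.6% were at an unadjusted p under 0.05, against 8.41% of the 321 others on chromosome 16 and 5.16% of the 13879 on other chromosomes. Chromosome 16 had the highest share of the 20 chromosomes, with 9.84%, followed by chromosome 8 with 7.87% and chromosome 15 with 7.41%. The lowest share was 3.21%, on chromosome 18. Neighbouring genes are not independent, and no test was made of these shares. In the mutant pair the shares were 24.8%, 24.3% and 18.6%, so there the rest of chromosome 16 was close to the region around Dlg1.

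Of these 17 genes, 13 were lower and 4 higher in SAP97 control. All 760 genes at an unadjusted p under 0.05 divided similarly, with 580 lower and 180 higher. Of the 17, Hrasls alone passed the adjusted p, and the higher genes were Tfrc, Cpn2, Lrrc15 and Gtf2e1. Tfrc, the transferrin receptor, lies 0.945 Mb after the start of Dlg1, and its mean was 149 CPM against 60.1 CPM (log2 fold change 1.33, unadjusted p of 0.00578, adjusted p of 0.803). In the mutant pair its log2 fold change was 0.16 (unadjusted p of 0.694). Cpn2, a subunit of carboxypeptidase N, and Lrrc15 lie 1.80 kb apart and were both higher, with log2 fold changes of 0.91 and 0.87 in the control pair and 0.63 and 0.84 in the mutant pair. Among the lower genes were Arhgap31, a GTPase-activating protein for Cdc42 and Rac1 (log2 fold changes of -1.13 and -1.24 in both pairs), Mylk, the myosin light chain kinase of smooth muscle (-0.81 and -0.85), and Parp14, an interferon-induced ADP-ribosyltransferase (-0.84 and -0.43).

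**Figure D3:**
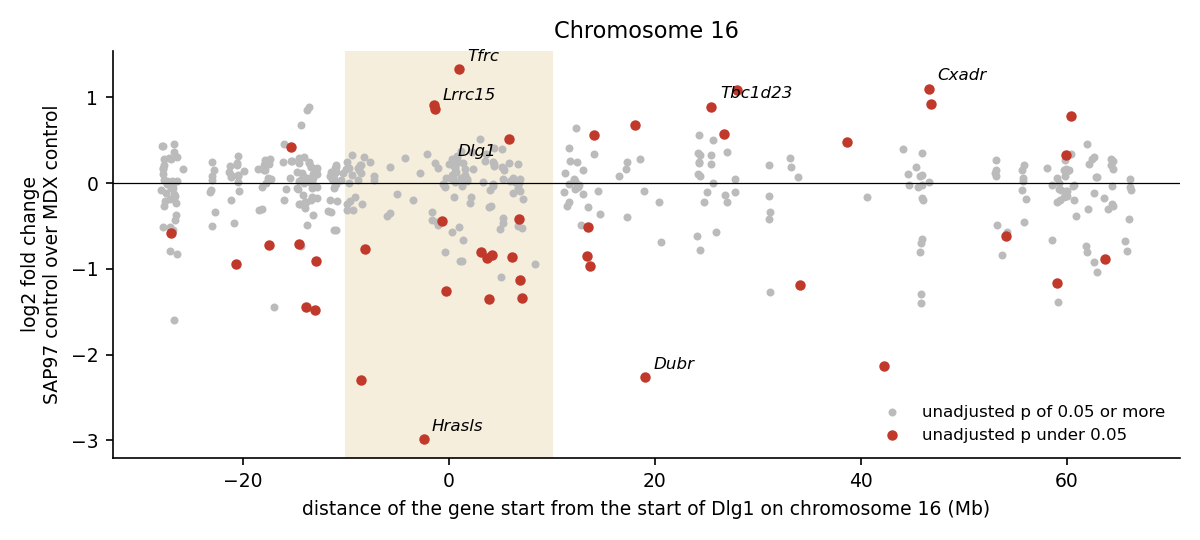
Log2 fold change of SAP97 control over MDX control for the genes tested on chromosome 16, against the distance of their start from that of Dlg1 in Mb, with the 10 Mb on each side shaded. Genes at an unadjusted p under 0.05 are red, 13.6% of those in the shaded region and 8.41% of those outside it.

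Of the 20 named genes, 11 lie on chromosomes 14, 15 and 16, which hold 10.3% of the genes tested and were grouped after the places of these genes were seen. Chromosome 14 had 5.36% of its genes past the unadjusted p, near the 5.29% of all genes. There were 5 on chromosome 16 (Hrasls, Lrrc15, Dubr, Tbc1d23 and Cxadr), 4 on chromosome 15 (Ttc38, Tmem117, Cbx7 and Bik) and 2 on chromosome 14 (Ogdhl and Wdfy4, 0.611 Mb apart). On chromosome 15, Cbx7 and Pdgfb (log2 fold changes of -1.65 and -1.07) lie 24.8 kb apart, and Ly6e and Ly6a (-1.73 and -1.44), of a family of close copies, 35 kb apart. Pdgfb, Ly6e and Ly6a were picked for their place after their values were seen.

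Markers of cell types other than cardiomyocytes had lower levels in SAP97 control. Of 10 fibroblast markers tested, all 10 had lower levels and 7 an unadjusted p under 0.05, with a median log2 fold change of -0.64. The same held for 10 of 10 endothelial markers (3 past that p, median -0.53), 8 of 9 mural markers of pericytes and smooth muscle (6 past it, -0.62) and 5 of 5 epicardial and mesothelial markers (4 past it, -1.03). None of these genes passed the adjusted p. The number past the unadjusted p fell to 0 of 10 endothelial markers without SAP97 control replicate 2, and with age as a covariate to 2 of 9 mural and 0 of 5 epicardial and mesothelial markers. Among all genes tested, 50.9% had a lower level and 4.04% were lower at that p. Macrophage and myeloid markers had 8 of 10 lower and none past that p, with a median of -0.21.

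The markers of cardiomyocytes lay the other way. All 8 had higher levels in SAP97 control (median log2 fold change 0.17), and none was at an unadjusted p under 0.05. Their summed level was 95000 to 101000 CPM in SAP97 control and 73000 to 99400 CPM in MDX control, against 162 to 286 and 312 to 460 CPM for the fibroblast markers and 198 to 388 and 296 to 520 CPM for the endothelial markers. The label of ventricular cardiomyocytes thus held in both groups, with summed levels of 45.9 to 66.4 and 37.4 to 86.3 CPM for the atrial markers and 0.496 to 1.13 and 0.526 to 1.97 CPM for the lymphocyte markers. Cd3e, Cd3g and Nkg7, markers of T cells and natural killer cells, had no count in SAP97 control. In such bulk samples, fewer cells of a type and less RNA per cell cannot be told apart.

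The difference of the stromal markers was largest in 1 mouse. SAP97 control replicate 2 was the lowest library for the fibroblast, endothelial, mural and mesothelial lists, as the plot of lists by library shows. On the mean log2(CPM + 0.5) of the list, relative to the wild type mean, the fibroblast list lay at -1.07 to -0.361 in SAP97 control and -0.211 to 0.247 in MDX control. For the endothelial list the ranges were -1.04 to -0.268 and -0.467 to 0.301, which overlap. Over the alternatives, every endothelial and fibroblast marker kept its lower level. The number of the 10 fibroblast markers past the unadjusted p ranged from 1, in the deposited table of all libraries without MDX control replicates 4 and 5, to 8. The median stayed between -0.85 and -0.42.

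**Figure D4:**
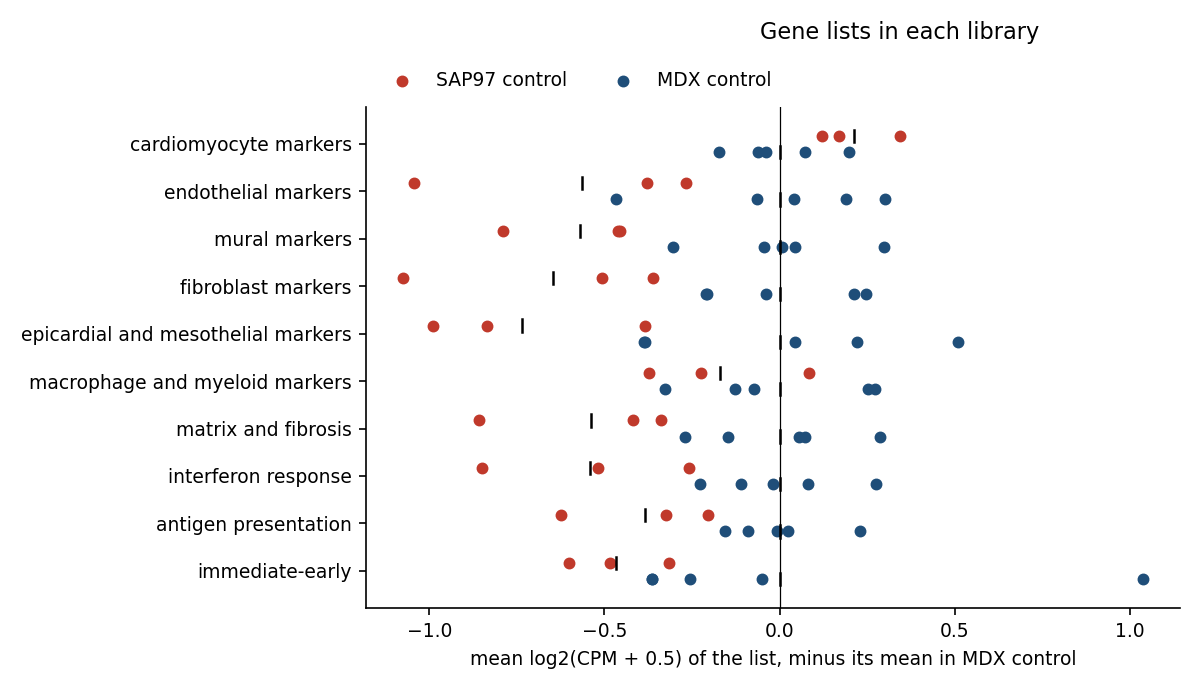
Mean log2(CPM + 0.5) over the tested members of each list in each of the 8 libraries, relative to the mean of the 5 MDX control libraries, with a black tick at the group mean. The fibroblast, mural, matrix, interferon and antigen presentation lists do not overlap between the groups, and the macrophage list does.

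Matrix and fibrosis genes also had lower levels, and 5 of them are fibroblast markers too. Of 30 tested, 28 had lower levels in SAP97 control and 14 an unadjusted p under 0.05, with a median log2 fold change of -0.67. The smallest p-values after Col1a1 and Loxl1 were those of Col5a1, a chain of type V collagen (-0.92, unadjusted p of 0.00165), and Col15a1, a chain of type XV collagen of basement membranes (-0.99, unadjusted p of 0.00554). In the mutant pair 27 of 30 were lower, with a median of -0.66 and 16 of these past that p. The share of all genes that were lower at that p was 4.04% in the control pair and 10.4% in the mutant pair. Without SAP97 control replicate 2, the count past that p in the control pair was 6 of 30. Fibroblast markers moved with these genes in both pairs, with medians of -0.64 and -0.76, and their part in the matrix genes was not tested.

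Interferon response genes, which cells turn on when they sense viral nucleic acid, lay below the wild type level as well. Of 42 tested, 38 had lower levels in SAP97 control, 15 of them at an unadjusted p under 0.05, and the median log2 fold change was -0.72. Irf7, the transcription factor that sustains the interferon response, was 1.54, 0.91 and 1.26 CPM against 2.50, 2.04, 3.42, 2.87 and 3.50 CPM (-1.20 ± 0.29 SE, adjusted p of 0.583). Rsad2, the antiviral protein viperin, was 3.01, 0.91 and 1.59 CPM against 6.58, 3.64, 3.36, 9.07 and 4.99 CPM (-1.59 ± 0.45 SE, adjusted p of 0.803). Cmpk2, a mitochondrial nucleotide kinase beside Rsad2 in the genome, had a log2 fold change of -1.25. In the mutant pair 41 of 42 were lower in SAP97 KO, with a median of -0.85 and 25 of these past that p. Of all genes tested, 4.04% were lower at that p in the control pair and 10.4% in the mutant pair. With age as a covariate, 8 genes of the list were past that p in the control pair. The interferon and antigen presentation lists had the same lowest library (SAP97 control replicate 2) and the same highest (MDX control replicate 4) as the fibroblast, endothelial and mural markers, and the endothelial markers had medians of -0.53 and -0.97 in both pairs. The part of these cell types in the interferon and antigen presentation genes was not tested.

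Genes of antigen presentation, which include the histocompatibility genes that differ between strains, had 22 of 25 lower and 7 at an unadjusted p under 0.05, with a median of -0.28. H2-K1, a classical class I gene, was 17.4, 9.72 and 16.9 CPM against 22.4, 19.9, 22.4, 35.6 and 31.8 CPM (log2 fold change -0.84 ± 0.26 SE, adjusted p of 0.818). H2-D1 had a log2 fold change of -0.87, and Nlrc5, the transactivator of class I genes, of -1.35. H2-Q6 and H2-Q7 had -2.13 and -1.61, but they are close copies and reads of 1 allele may fit another gene, so their values are uncertain. Of 12 genes listed as known to vary between strains, Ly6a (-1.44, unadjusted p of 7.95e-04) and Apobec3 (-1.79, unadjusted p of 0.00391) were past the unadjusted p, and the list's median was 0.02.

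The lists of contraction and excitation lay near 0. Of 32 sarcomere genes, 20 had higher levels in SAP97 control, the list's median log2 fold change was 0.03, and only Tpm2, a tropomyosin, was at an unadjusted p under 0.05 (-1.08, unadjusted p of 0.00133). Of 44 cardiac ion channel genes, 26 were higher with a median of 0.04. There, Kcnd2 and Kcnj3 were past that p with log2 fold changes of 0.36 and 0.41, and Kcnn1 and Kcnj8, the latter also a mural marker, with -0.48 and -0.60. Of 26 calcium handling genes, 17 were higher with a median of 0.13. Cacna2d1, the auxiliary subunit of the L-type calcium channel, was 259, 274 and 298 CPM against 182, 249, 152, 226 and 172 CPM (0.50 ± 0.20 SE, adjusted p of 0.893), and Slc8a1, the sodium-calcium exchanger, had a log2 fold change of 0.43 (unadjusted p of 0.0450). The dystrophin complex (12 of 16 higher, median 0.11, Sspn past that p), the partners of SAP97 and CASK (11 of 21 higher, 0.05, Apba1 past that p with -1.06 and Kcnd2 with 0.36) and the intercalated disc (13 of 17 higher, 0.13, Cxadr past that p) were near 0 as groups, and the medians of the sarcomere, ion channel, partner and intercalated disc lists turned sign under some alternatives.

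**Figure D5:**
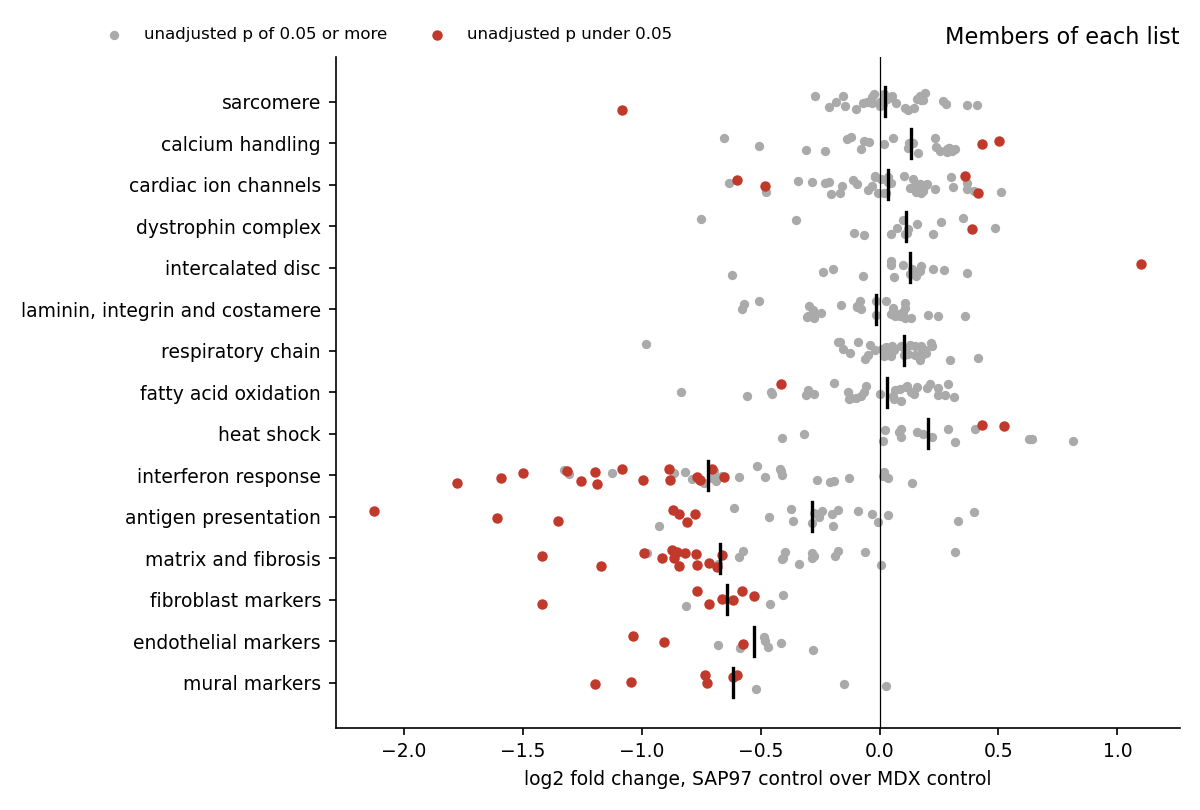
Log2 fold change of SAP97 control over MDX control for each tested member of 15 gene lists, with a black line at the median of the list and members at an unadjusted p under 0.05 in red. The interferon, matrix and marker lists lie mostly below 0 (medians of -0.72, -0.67 and -0.64 to -0.53), and the lists of contraction and excitation lie around 0.

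The metabolic lists had medians close to 0, and the sign turned with the processing for the respiratory chain and fatty acid oxidation. The respiratory chain had 27 of 37 genes higher, its median log2 fold change was 0.10 and none was at an unadjusted p under 0.05. Its median ranged from -0.0687, with age as a covariate, to 0.337 over the alternatives, and in the mutant pair 37 of 37 genes were lower, with a median of -0.35. Fatty acid oxidation had 18 of 34 higher with a median of 0.03, which ranged from -0.11 to 0.215. Glycolysis and glucose uptake had 20 of 25 higher with a median of 0.14, which stayed between 0.0838 and 0.248. Ppargc1a, the coactivator of mitochondrial genes, was 68.7 to 93.6 CPM against 94.1 to 121 CPM (-0.41, unadjusted p of 0.0344). Immediate-early genes had 19 of 22 lower with a median of -0.53, 4 of them past that p. There, MDX control replicate 3 lay 1.04 above the wild type mean on the list's mean log2 level and the next wild type at -0.051, and without this library the median was -0.24. In the mutant pair, which does not hold that library, 19 of 22 were lower, with a median of -0.76 and 13 past that p. Among all genes tested, 4.04% in the control pair and 10.4% in the mutant pair were lower at that p. Heat shock genes had 16 of 18 higher, with a median of 0.20 and Hsph1 and Hspa4l past that p. Their median ranged from 0.0283 to 0.433 over the alternatives, and in the mutant pair 8 of 18 were higher, with a median of -0.04. Of 14 p53 targets tested, 9 had lower and 5 higher levels, and 2 were past that p. Their median was -0.11 and ranged from -0.231 to 0.035 over the alternatives. The target of smallest p, Cdkn1a, which encodes p21, was 1.95 to 2.44 CPM against 4.34 to 10.4 CPM (-1.39, unadjusted p of 0.00132).

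The libraries of both groups held 24234649 to 34191411 counts, and the mean total of 31460000 ± 2381000 counts (SD, n = 3) in SAP97 control lay within the spread of the 29450000 ± 4269000 counts (SD, n = 5) in MDX control (exact permutation test over 56 splits, two-sided p = 0.5). Mitochondrially encoded genes took 30.2 to 40.6% of the counts in SAP97 control and 27.4 to 54.4% in MDX control (exact permutation p = 0.464). The labels name poly-A selection for wild type samples, while the study's methods describe total RNA libraries made after depletion of ribosomal RNA. Non-polyadenylated RNAs took 0.480 to 0.815% of counts in SAP97 control and 0.196 to 0.875% in MDX control (exact permutation p = 0.625), and the ranges overlap. Globin transcripts of red cells took at most 0.00390% of counts. The study mentions 2 rounds of sequencing in connection with the wild types, and which libraries were in which round is not given in the sources used here, so line and sequencing round cannot be told apart.

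The tables of both groups were counted with different annotation releases, and this decided most calls when ignored. With every gene joined by identifier, 48 genes passed the adjusted p, of which 43 had counts that differed by a ratio of over 1.1 between releases for the same libraries. Ankrd23 held 34480 counts over the 3 SAP97 control libraries in 1 deposited table and 380 in the other, against 353 in both for MDX control replicates 1 to 3, and gave a log2 fold change of 6.54. Kcnj11, the pore of the ATP-sensitive potassium channel, held 3255 and 8239 counts in SAP97 control against 8571 in both, and gave -1.60. In the table that holds all libraries under 1 release, from which only the 3 SAP97 control libraries and MDX control replicates 1 to 3 were used, their log2 fold changes were -0.19 and -0.27. The columns of MDX control replicates 4 and 5 in it did not follow its gene identifiers. There, 35 of the 43 genes could be tested and none passed, the smallest adjusted p being 0.700. All 2062 genes whose counts differed by over that ratio, called or not, were therefore left out of the comparison.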

How the data were processed

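RNA of ventricular cardiomyocytes was sequenced in 22 libraries, of which 8 were compared here and 13 others used beside them; MDX replicate 1 was left out for its few reads, as the study did. The authors removed ribosomal RNA, aligned read pairs to GRCm38 with TopHat2 2.0.13 and Bowtie2 2.2.1 and deposited HTSeq 0.6.1 counts per gene. The authors also deposited TPM, computed from counts and exon lengths, which were not used. The deposited tables also hold signal values normalised with DESeq2 1.10.1 and the authors' own log2 fold changes, scores and p-values, none of which were used.

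Counts were joined by Ensembl identifier, since the groups were counted under different annotation releases: of 46813 shared genes, 2062 were dropped because their counts for the same libraries differed by a ratio over 1.1. Low counts were filtered with filterByExpr, libraries scaled by TMM, and groups compared with edgeR 4.0.16 (R 4.3.3), its quasi-likelihood F test and Benjamini-Hochberg adjustment over all genes tested. The threshold for a call was 0.01 on the adjusted p. DESeq2 1.42.0, other filters and scalings, age, a replicate block and each library left out were alternatives. CPM use the TMM-scaled totals. Named genes were the 3 called and those of smallest p that had a symbol, reached 1 CPM in the higher group and did not overlap between groups, up to 20, with the targeted genes and, per list, the members of smallest p. Other genes were picked as examples after their values were seen. Members, gene lists and tests were chosen with earlier results of these data known. Each library is 1 mouse, so p-values measure the spread between mice. Strain, line and sequencing round cannot be told apart.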

Additional observations from a re-analysis of the deposited data

Results flagged for a closer look

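Of 53 groups of 4 to 5 libraries looked at, 5 had a library far from the others, and chance alone flags about 1 in 20. Ucp2 was 68.2 CPM in MDX replicate 5, above the other 3 MDX libraries. Cbx7 was 15.1 CPM in MDX control replicate 3, the highest of the wild types. Dlg1 was 62.5 CPM in MDX replicate 4, the highest of that group. Dmd was 235 CPM in MDX control replicate 5, the lowest of the wild types. Globin transcripts took 0.0039% of counts in MDX control replicate 1, the highest of the wild types. The line difference of Dlg1 differed between the mutant and the control pair by -2.37 on the log2 scale (edgeR interaction, adjusted p of 7.49e-05), with SAP97 KO being the group in which Dlg1 was deleted.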

How the results depend on the processing

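The control pair gave 3 calls, and 27 with DESeq2, 48 without the annotation release filter, 9 in 1 model of 21 libraries and 2 to 4 with 1 library left out. Replicate numbers did not pair the samples (correlations of same-numbered deviations of -0.108, -0.175 and -0.236), and a replicate block left 1 call, Ogdhl. The mutant pair gave 8 calls, and 829 without a filter on low counts, 424 with DESeq2, 388 with the replicate block and 0 to 18 with 1 library left out. The interaction gave 1 call, and 7 without the filter on low counts, 11 with DESeq2 and 1 to 2 with 1 library left out. Ogdhl was called under all 18 alternatives and Hrasls under 17, the exception being the replicate block (adjusted p of 0.0241). Ucp2 was called under 6 of 18 (adjusted p from 4.72e-20 to 0.113). Signs turned for values near 0, also for list medians given above: the difference in percent mt-Rnr2 (-3.44) ranged from -6.14 to 0.0796 with 1 library left out, the latter without SAP97 control replicate 3, the median of the SAP97 and CASK partners from -0.146 (without SAP97 control replicate 2) to 0.108, that of p53 targets was 0.035 in the table of all libraries and 0.0344 without MDX control replicates 4 and 5, and that of sex chromosome genes from -0.0126 (without MDX control replicate 3) to 0.185. The causes were not tested. With 3 mice against 5 an exact permutation test has only 56 splits, which limits how small its p can be.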
